A study of Mus musculus with 22 samples.

Results

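Cholesterol and fatty acid synthesis genes were followed in mouse myeloid cells that carry mutant huntingtin. The list names 35 genes, and a gene was taken from the deposited expression table wherever its symbol matched, with the transcript of highest mean level. That gave 34 genes of the 23953 symbols in the table: 17 enzymes of sterol synthesis, 6 genes of the SREBP control circuit, 8 enzymes of fatty acid synthesis and desaturation, and 3 genes of the liver X receptor (LXR) and cholesterol efflux. The listed gene without a row under its own symbol is Msmo1, which the table names as an older synonym row, Sc4mol. Hmgcs1 has a row, placed on an unassigned piece of chromosome 13, and is listed at 0 in all 10 RNA libraries, so its level was not measurable here.

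The RNA came from BV2 cells, an immortalised mouse microglial line, and from primary cells of mice. A lentivirus carried into BV2 cells, behind a CMV promoter, the N-terminus of human huntingtin with 128 glutamines (mutant fragment) or with 15 (wild-type fragment), or no insert (empty vector), and each construct has 1 library at 24 h and 1 at a second time. All 3 kinds of BV2 cells therefore carry the vector, and the fragment is an overexpressed piece of a human protein beside the cells' own mouse huntingtin. The primary cells were adult brain microglia, sorted as CD11b+ and CD45 low, and macrophages grown from bone marrow, from mice with 175 glutamines in both huntingtin alleles (mutant) or 7 (wild type), 1 library each. The BV2 cells also have peak lists for H3K4me2, a histone mark found at promoters and enhancers, and for PU.1, C/EBPα and C/EBPβ, which are myeloid transcription factors, 1 library per antibody and construct. The peak libraries are labelled 24 h. All BV2 labels, for RNA and peaks, carry the term notx, which is read here as no treatment. The sources used here conflict on the second time, which is 6 h in the table's header and 48 h in the labels, so no order of the times is assumed. Nothing in the labels says that libraries came from separate cultures or animals, so p-values measure the spread between these libraries, which may be technical.

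Levels are RPKM, reads per kilobase of transcript scaled to each library's mapped reads. The implied depth lay between 10.8 and 14.0 M (mega) reads in BV2 cells, and between 28.8 and 47.8 M reads in primary cells. Of 8 microglia markers, all 8 reached 1 RPKM in microglia, where they summed to 3540 to 4290 RPKM, and 2 of 8 did so in control BV2 cells, where they summed to 35.8 to 118 RPKM. P2ry12 and Sall1, 2 defining microglia genes, were at 0.061 RPKM or less in every BV2 library, so BV2 cells carry the microglial name without these markers. Markers of oligodendrocytes, neurons, astrocytes and lymphocytes summed to 5.03 RPKM or less in every group. Of 3 endothelial markers, Flt1 alone reached 1 RPKM in BV2 cells. Granulocyte markers were present in primary cells: the 5 of them summed to 543 RPKM in mutant and 1710 RPKM in wild-type microglia, and to 205 and 413 RPKM in macrophages of the same genotypes.

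Cells make cholesterol from acetyl-CoA through the mevalonate pathway, and make fatty acids from the same precursor. Both routes are switched on by SREBP transcription factors, which leave the endoplasmic reticulum with their escort SCAP when membranes are low in sterol and are held back there by INSIG proteins when sterol is plentiful. LXR receptors answer excess sterol in the other direction, by raising the exporters ABCA1 and ABCG1, and in myeloid cells these circuits are known to interact with inflammatory signalling.

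The promoters are shown because SREBP factors are known to act at a short sterol element together with NF-Y, which binds CCAAT boxes, and with SP1, which binds GC boxes. RefSeq promoters on GRCm38.p6, from 250 bases before to 50 after the start, were available for 27 of the 35 listed genes. The first 5 below belong to genes that were lower with the mutant fragment at 24 h, Abca1 was higher, and Hmgcs1 carries the sterol element core. Capitals mark CCAAT boxes on either strand and, in Hmgcs1, also the sterol element core. The windows are chr5:28071162-28071461 on the plus strand (Insig1), chr8:122443373-122443672 on the minus strand (Mvd), chr13:8885356-8885655 on the plus strand (Idi1), chrX:72918271-72918570 on the plus strand (Nsdhl), chr11:120824498-120824797 on the minus strand (Fasn), chr4:53159846-53160145 on the minus strand (Abca1) and chr13:119690101-119690400 on the plus strand (Hmgcs1).
Insig1: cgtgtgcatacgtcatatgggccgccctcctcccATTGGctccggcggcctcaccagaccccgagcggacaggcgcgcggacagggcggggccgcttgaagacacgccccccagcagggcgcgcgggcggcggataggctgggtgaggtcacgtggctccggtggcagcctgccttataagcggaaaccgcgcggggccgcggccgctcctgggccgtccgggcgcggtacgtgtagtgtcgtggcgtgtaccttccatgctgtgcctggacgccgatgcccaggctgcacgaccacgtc
Mvd: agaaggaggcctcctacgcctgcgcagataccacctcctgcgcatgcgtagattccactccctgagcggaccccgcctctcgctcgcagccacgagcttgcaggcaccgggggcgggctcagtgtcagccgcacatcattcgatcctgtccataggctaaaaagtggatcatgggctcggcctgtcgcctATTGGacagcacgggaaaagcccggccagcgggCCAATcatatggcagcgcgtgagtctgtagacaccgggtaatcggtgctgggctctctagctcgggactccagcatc
Idi1: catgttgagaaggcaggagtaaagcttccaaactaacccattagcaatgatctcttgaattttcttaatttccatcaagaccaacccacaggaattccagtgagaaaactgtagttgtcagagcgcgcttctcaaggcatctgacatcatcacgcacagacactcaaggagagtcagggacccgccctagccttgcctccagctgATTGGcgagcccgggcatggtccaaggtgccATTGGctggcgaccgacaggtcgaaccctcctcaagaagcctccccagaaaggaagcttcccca
Nsdhl: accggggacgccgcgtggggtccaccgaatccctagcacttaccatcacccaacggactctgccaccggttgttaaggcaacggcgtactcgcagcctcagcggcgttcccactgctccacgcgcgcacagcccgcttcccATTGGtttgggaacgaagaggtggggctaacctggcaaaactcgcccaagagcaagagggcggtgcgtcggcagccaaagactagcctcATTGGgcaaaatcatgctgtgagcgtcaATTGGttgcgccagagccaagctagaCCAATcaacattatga
Fasn: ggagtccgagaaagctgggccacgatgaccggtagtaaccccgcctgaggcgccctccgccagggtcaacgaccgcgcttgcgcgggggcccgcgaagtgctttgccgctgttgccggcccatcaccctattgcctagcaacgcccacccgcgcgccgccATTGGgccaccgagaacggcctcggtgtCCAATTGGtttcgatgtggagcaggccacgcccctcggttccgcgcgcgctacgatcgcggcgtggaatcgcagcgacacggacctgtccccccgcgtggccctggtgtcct
Abca1: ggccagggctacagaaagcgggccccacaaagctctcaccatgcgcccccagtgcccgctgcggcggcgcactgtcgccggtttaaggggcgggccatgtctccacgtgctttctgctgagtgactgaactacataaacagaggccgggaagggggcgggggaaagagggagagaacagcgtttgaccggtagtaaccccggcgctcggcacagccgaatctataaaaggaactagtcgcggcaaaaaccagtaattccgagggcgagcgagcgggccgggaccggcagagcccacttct
Hmgcs1: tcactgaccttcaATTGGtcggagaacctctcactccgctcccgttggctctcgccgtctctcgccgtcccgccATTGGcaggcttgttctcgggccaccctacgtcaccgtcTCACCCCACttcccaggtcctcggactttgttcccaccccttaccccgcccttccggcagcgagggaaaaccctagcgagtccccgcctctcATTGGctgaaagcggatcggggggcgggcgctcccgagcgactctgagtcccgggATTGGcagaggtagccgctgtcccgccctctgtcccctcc

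Some genes have several promoter windows, and a gene or symbol was counted where any of its windows held the pattern. A CCAAT box was found in 20 of the 27 genes (74.1%), against 41.1% of all 27025 symbols of the promoter table. Among sterol enzymes it was in 14 of 15 genes, and Nsdhl held 4 copies in its window while Mvk held 5. Among symbols expressed in BV2 cells the shares were 73.9% of 23 genes of the list and 43.2% of 7491 symbols. The GC box GGGCGG was in 22 of 27 genes (81.5%), or 78.3% of the expressed ones against 71.0% of expressed symbols. The sterol element core TCACNCCAC, searched on both strands, was in 1 of the 27 genes (3.7%), against 1.44% of all symbols. That gene was Hmgcs1, with the core 137 bases before the start. Among symbols expressed in BV2 cells it was in 0 of 23 genes of the list, against 1.4%. Only this form was searched, so the count cannot show whether looser sterol elements are absent. The LXR element of the DR4 type was searched only as a pair of exact AGGTCA half-sites spaced by 4 bases. That strict form was in 0 of 27 genes, against 0.0148% of all symbols. So rare a pattern cannot show whether looser LXR elements are absent from these promoters. All these counts are matches of letters in 1 window per start. A CCAAT box and a GC box can share bases at their ends, and a match is not a measured site.

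The main comparison asked what the mutant fragment changes in BV2 cells at each time, against the mean of the wild-type fragment and the empty vector. At 24 h, genes of both synthesis routes fell together with the mutant fragment: of 31 members tested, 22 were lower and 2 were higher (limma, adjusted p under 0.05 over 10350 genes). Over all genes tested, 18.4% were called lower and 21.1% higher. The members' median log2 difference was -0.93 on the log2(RPKM + 1) scale, beside 0.05 over all genes. The mutant library lay below both control libraries for 24 of the 31 members (77.4%), against 40.6% of genes, and above both for 5, against 47.7%. On the same scale, which shrinks the ratios of low genes, it lay at least 2-fold below both controls for 13 members (41.9%), against 4.81% of genes. There was 1 mutant library at each time, and the error of this fit is the spread between the 2 control constructs, so these p-values do not cover variation between mutant cultures. The filter on low values left out Hmgcs1, Fads2 and Tm7sf2, a sterol reductase with 0.497 RPKM with the mutant fragment at 24 h against 0.518 and 0.490 RPKM with the wild-type fragment and the empty vector.

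**Figure D1:**
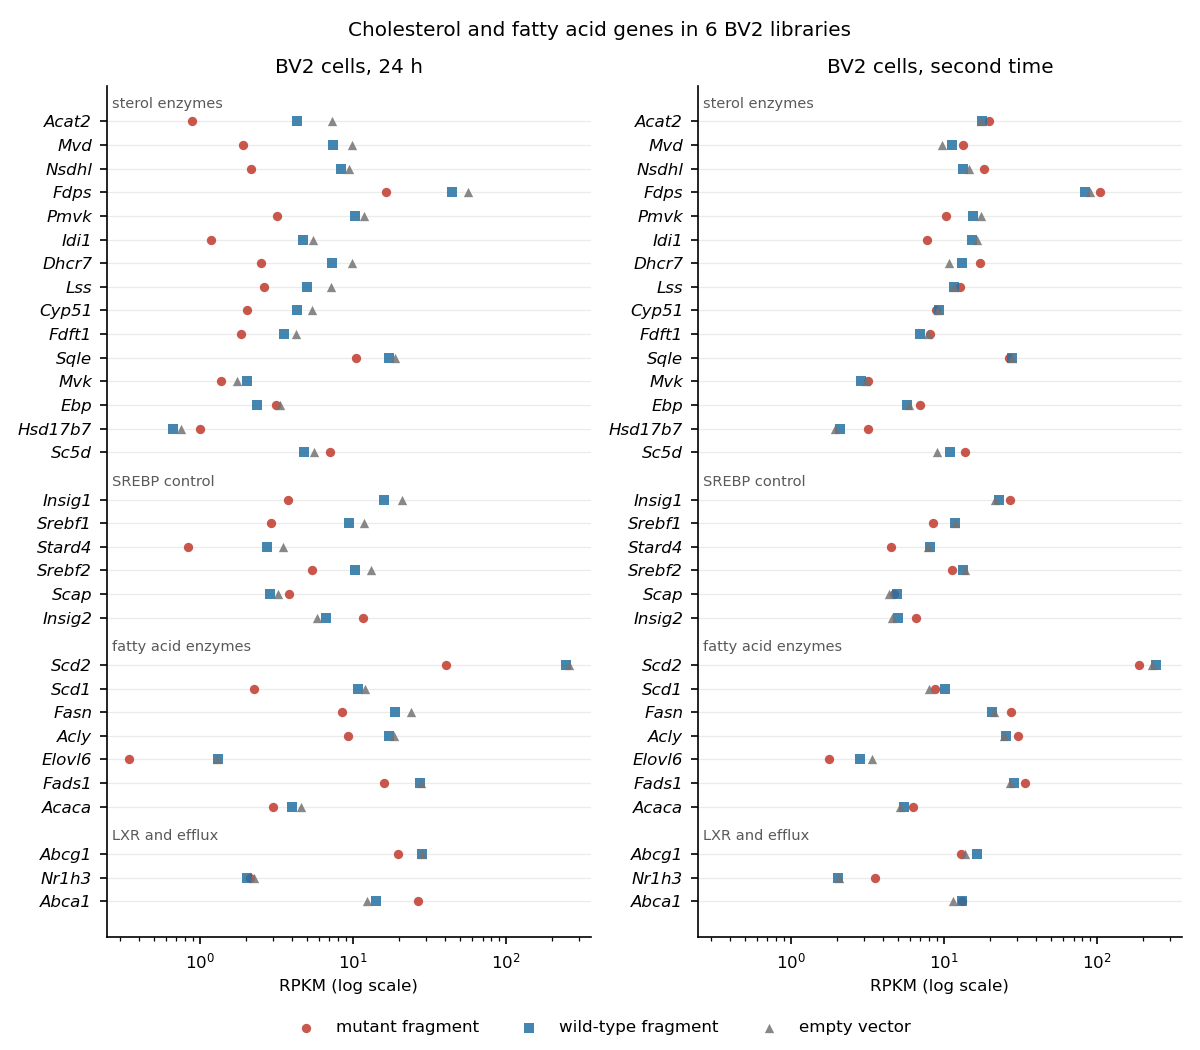
RPKM on a log scale of the 31 tested members in BV2 cells with the mutant fragment (circles), the wild-type fragment (squares) and the empty vector (triangles), 1 library each, at 24 h (left) and at the second time (right). At 24 h the mutant library stands left of both controls for 24 members, and at the second time for 10.

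Early mevalonate enzymes carried large differences. Acat2, the thiolase that joins acetyl-CoA units, had 0.882 RPKM with the mutant fragment at 24 h, against 4.30 with the wild-type fragment and 7.27 with the empty vector. The mutant value rests on an implied 25 reads, the fewest of any lower member, and the 2 controls themselves differed by 1.69-fold. Mvd, which decarboxylates the mevalonate backbone (chromosome 8, 124957496 to 124967322, mm9), had 1.92 RPKM against 7.42 and 9.87 in the same order. Pmvk, the kinase before it, had 3.20 against 10.3 and 11.9 RPKM, and lies at chromosome 3, 89263040 to 89272931. In all 3 genes the mutant library was below both controls, and the log2 differences were -1.82 (SE 0.26), -1.71 (SE 0.19) and -1.52 (SE 0.14), with adjusted p between 0.00211 and 0.00709 in limma. Mvk, the first kinase, had 1.37 against 2.03 and 1.75 RPKM, with a log2 difference of -0.28 that did not pass (limma, adjusted p = 0.109).

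The next enzymes build the isoprenoid chain. Idi1, which interconverts the 5-carbon units, had 1.17 RPKM with the mutant fragment, against 4.70 and 5.50 RPKM with the wild-type fragment and the empty vector. Fdps, which makes farnesyl diphosphate (chromosome 3, 88897510 to 88905889), was the most abundant sterol enzyme here, with 16.5 RPKM against 44.2 and 56.5. Fdft1, which commits farnesyl units to squalene, had 1.84 against 3.51 and 4.26 RPKM. All 3 were lower: the log2 differences were -1.49 (SE 0.13) for Idi1, -1.54 (SE 0.17) for Fdps and -0.78 (SE 0.14) for Fdft1, with adjusted p between 0.00195 and 0.0123 in limma.

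Enzymes that oxidise squalene and shape the ring were lower in part. Sqle, the squalene epoxidase and a rate-limiting step, had 10.5 RPKM against 17.1 and 18.8. Lss, which closes the ring to lanosterol, had 2.60 against 5.01 and 7.19 RPKM, and Cyp51, the lanosterol demethylase, had 2.03 against 4.27 and 5.37 RPKM. Their log2 differences lay between -0.96 and -0.72, and all 3 passed. Nsdhl, a dehydrogenase of the demethylation complex whose promoter held 4 CCAAT boxes, had 2.14 RPKM against 8.29 and 9.45, a log2 difference of -1.65 (SE 0.13, limma adjusted p = 0.00155). Sc4mol, the row of Msmo1 that was not among the tested members, is the oxidase of that complex and had 13.6 RPKM against 24.7 and 28.5.

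The last steps did not move as a block. Dhcr7, the reductase that yields cholesterol, had 2.49 RPKM with the mutant fragment against 7.25 and 9.91 RPKM with the wild-type fragment and the empty vector, and was lower (log2 difference -1.44, SE 0.21, limma adjusted p = 0.00704). Sc5d, the desaturase before it, had 7.05 against 4.78 and 5.58 RPKM, a log2 difference of 0.39 that did not pass (limma, adjusted p = 0.104). Ebp, the isomerase, had 3.15 against 2.37 and 3.32 RPKM, between the controls. Hsd17b7, the reductase of the demethylation complex, had 1.01 against 0.666 and 0.749 RPKM (log2 difference 0.23, limma adjusted p = 0.134). Of 15 sterol enzymes tested, 11 were lower and 0 higher, and the 4 that did not pass were Mvk, Sc5d, Ebp and Hsd17b7.

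The control circuit fell in 4 of 6 genes. Insig1, the retention protein that is itself an SREBP target (chromosome 5, 28397952 to 28405202), had 3.78 RPKM with the mutant fragment at 24 h, against 15.9 and 20.9 RPKM with the wild-type fragment and the empty vector. Its log2 difference of -2.01 (SE 0.18, 4.02-fold lower, limma adjusted p = 0.00211) was the second largest fall of the 31 members on the log2(RPKM + 1) scale. Srebf1, which encodes the lipogenic SREBP-1 (chromosome 11, 60012591 to 60034106), had 2.91 against 9.43 and 11.7 RPKM, and Srebf2, which encodes the sterol-directed SREBP-2, had 5.43 against 10.2 and 13.0 RPKM. Both were lower, with log2 differences of -1.56 (SE 0.15) and -0.96 (SE 0.16). Stard4, a sterol transporter and SREBP target, had 0.832 against 2.75 and 3.50 RPKM (log2 difference -1.17). The remaining pair went the other way in level. Insig2, the second retention protein, had 11.6 RPKM against 6.69 and 5.79 and was higher (log2 difference 0.80, SE 0.13, limma adjusted p = 0.00854). Scap, the escort, had 3.79 against 2.88 and 3.21 RPKM and did not pass (limma, adjusted p = 0.168).

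On the log2(RPKM + 1) scale, which shrinks the ratios of low genes, fatty acid enzymes held the largest fall of all members. That ranking need not hold in plain RPKM. Scd2, a stearoyl-CoA desaturase that makes monounsaturated fatty acids (chromosome 19, 44368166 to 44381352), had 40.1 RPKM with the mutant fragment, against 245 RPKM with the wild-type fragment and 257 RPKM with the empty vector. Its paralogue Scd1, at 44468940 to 44482199 on the same chromosome, had 2.25 against 10.8 and 11.9 RPKM. Neither gene's mutant value came near its controls. On the log2(RPKM + 1) scale the falls were 6.12-fold for Scd2 and 3.81-fold for Scd1 (limma, adjusted p = 6.65e-04 and 0.00185). These genes are similar in sequence, and how reads that match both were counted is not stated. Fasn, the fatty acid synthase (chromosome 11, 120667272 to 120685861), had 8.47 against 18.9 and 23.8 RPKM, and Acly, which supplies acetyl-CoA from citrate, had 9.32 against 17.2 and 18.4 RPKM. Elovl6, an elongase, had 0.343 against 1.32 and 1.29 RPKM, and Fads1, the delta-5 desaturase, had 15.8 against 27.2 and 27.7 RPKM. These 6 of 7 tested genes were lower. Acaca, the carboxylase that makes malonyl-CoA, had 3.00 against 3.96 and 4.54 RPKM and missed the threshold (log2 difference -0.39, limma adjusted p = 0.0541).

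The 3 LXR and efflux genes split. Abca1, the exporter of cholesterol to lipid-poor apolipoproteins (chromosome 4, 53043661 to 53172767), had 26.7 RPKM with the mutant fragment at 24 h, against 14.1 and 12.4 RPKM with the wild-type fragment and the empty vector. Abcg1, the exporter to mature lipoprotein particles, had 19.7 against 28.2 and 28.1 RPKM. Abca1 was higher (log2 difference 0.96, SE 0.14, limma adjusted p = 0.00704) and Abcg1 lower (-0.50, SE 0.13, limma adjusted p = 0.0356), and without either control library of 24 h Abcg1 no longer passed. Nr1h3, which encodes LXRα, had 2.12 against 2.04 and 2.26 RPKM and lay between the controls.

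**Figure D2:**
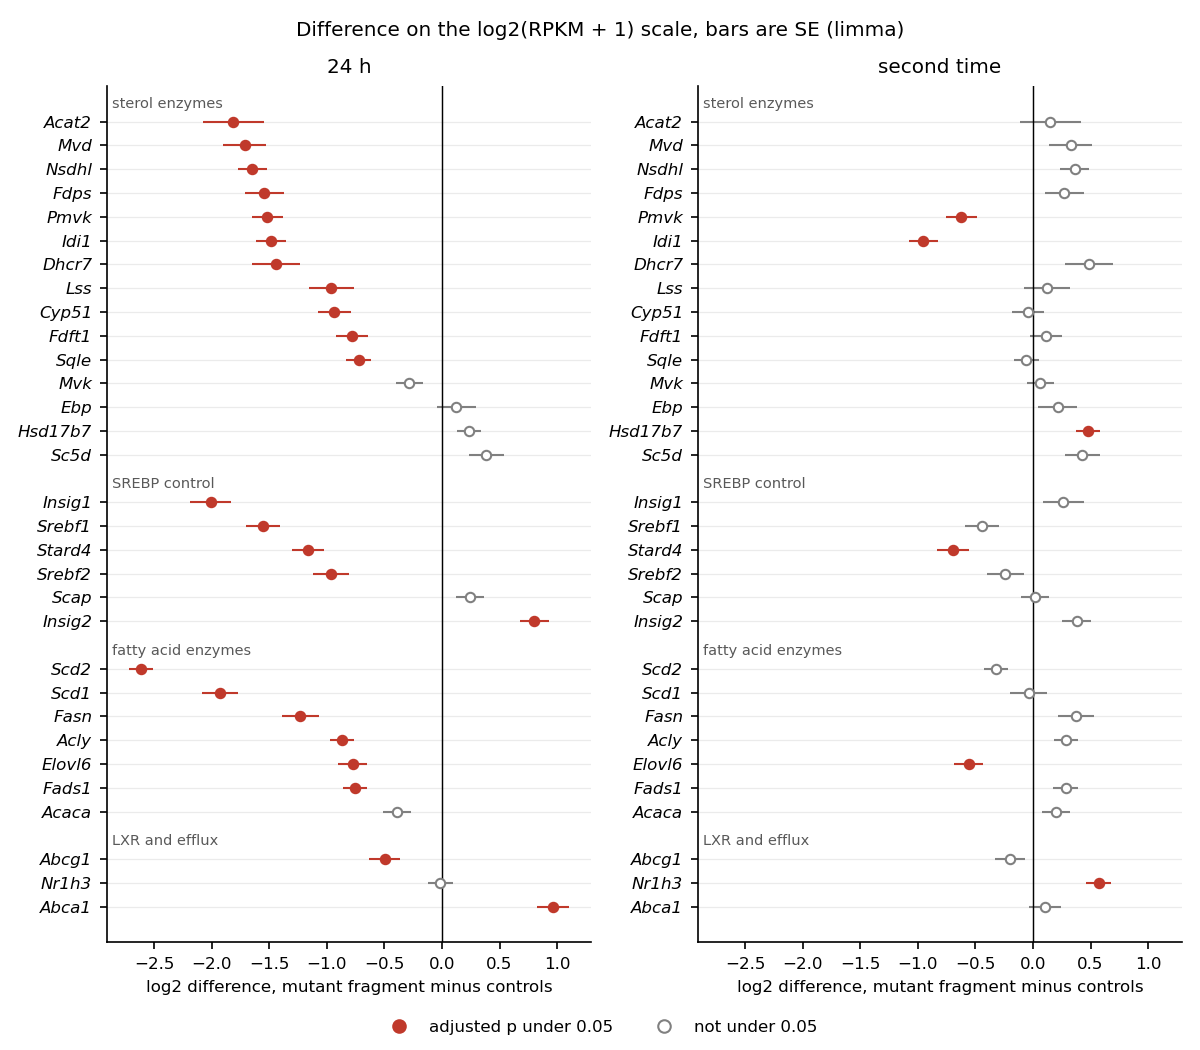
Log2 difference between the mutant fragment (1 library) and the mean of the 2 control libraries on the log2(RPKM + 1) scale for each of the 31 tested members, at 24 h (left) and at the second time (right), with bars for the SE from limma and filled circles for adjusted p under 0.05. At 24 h 22 filled circles lie left of 0 and 2 right of it, and at the second time 4 and 2.

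The 2 control constructs were themselves ordered at 24 h. The wild-type fragment was below the empty vector for 26 of the 31 members (83.9%), against 50.7% of genes, with a median log2 difference of -0.19 over the members and a range of -0.64 to 0.18. For 21 members (67.7%), against 22.5% of genes, the mutant fragment was lowest, the wild-type fragment between and the empty vector highest. The 2 controls were within 1.5-fold of each other for 30 of the 31 members. At the second time the wild-type fragment was below the empty vector for 11 of the 31 (35.5%), against 41.7% of genes. With both times in 1 fit, no gene passed between the wild-type fragment and the empty vector (limma, 0% of 10350 genes, 66 genes at an unadjusted p under 0.05, 0 members at either). The error of that fit also holds the change between times of the mutant libraries relative to the controls. That result therefore cannot show that the controls were alike.

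At the second time most of the fall was not seen. Of the 31 members, 4 were lower and 2 higher (limma, adjusted p under 0.05), where 14.6% of genes were called lower and 8.98% higher, and the members' median log2 difference was 0.12 beside -0.03 over all genes. The mutant library was above both controls for 19 members (61.3%), against 40.3% of genes, and below both for 10, against 45.7%. None of the 31 was at least 2-fold below or above both controls, where 2.49% and 1.96% of genes were. Of the 22 members that were lower at 24 h, 4 were also lower at the second time. Of the 18 others, 11 had a mutant level above the mean of the controls there, which did not pass.

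The 4 genes lower at both times were Pmvk, Idi1, Stard4 and Elovl6. Idi1 had 7.73 RPKM with the mutant fragment at the second time, against 15.3 and 16.5 RPKM with the wild-type fragment and the empty vector, a log2 difference of -0.95 (SE 0.13, limma adjusted p = 0.0106). Stard4 had 4.52 against 8.03 and 7.86 RPKM, Pmvk 10.3 against 15.5 and 17.3 RPKM and Elovl6 1.78 against 2.83 and 3.39 RPKM, with log2 differences between -0.70 and -0.56. The 2 higher genes were Hsd17b7, with 3.18 against 2.08 and 1.94 RPKM, and Nr1h3, with 3.53 against 2.03 and 2.07 RPKM (log2 differences 0.47 and 0.57, limma adjusted p = 0.0324 and 0.0210). Hsd17b7 was also above both controls at 24 h, where it did not pass. These 6 calls are fragile: without the wild-type-fragment library of the second time, or without the empty-vector library of that time, 0 members passed.

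Of the 13 lower members with a log2 difference below -1 at 24 h, Idi1, Pmvk and Stard4 were also lower at the second time. The others did not pass there. Insig1 had 26.8 RPKM with the mutant fragment, against 23.0 and 21.4 RPKM with the wild-type fragment and the empty vector. Fdps had 104 against 83.0 and 89.7 RPKM, and Nsdhl 18.3 against 13.4 and 14.6 RPKM. Scd2 stayed below both controls, with 189 against 244 and 228 RPKM, as did Srebf1, with 8.40 against 11.8 and 11.7 RPKM. That these genes did not pass does not show that their levels equalled those of the controls. Abca1, which was higher at 24 h, had 13.2 against 13.1 and 11.3 RPKM, and Insig2 had 6.55 against 5.02 and 4.60 RPKM.

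The change between times was tested directly, as the mutant-minus-control difference at the second time minus that at 24 h. It was positive and past the threshold for 18 members and negative for 1, Abca1 (limma, adjusted p under 0.05), where 11.9% of genes were called positive and 16.2% negative. The members' median was 0.89 and that of all genes -0.09. Scd2 (2.29, SE 0.15) and Insig1 (2.27, SE 0.25) had the largest values, followed by Mvd (2.04) and Nsdhl (2.01). Of the 18, 10 were sterol enzymes, 5 fatty acid enzymes, 2 control genes (Insig1 and Srebf1) and 1 was Nr1h3. Leaving out the wild-type-fragment library or the empty-vector library of the second time left 0 members past the threshold, and without the filter on low values 6 passed.

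In control cells the members also differed between times. Over the wild-type fragment and the empty vector, 17 of 31 were higher and 1 lower at the second time than at 24 h (limma, adjusted p under 0.05), where 32.1% of genes were called higher and 14.8% lower. The median log2 difference was 0.46, beside 0.13 over all genes. Acat2 had 17.7 and 17.5 RPKM at the second time in cells with the wild-type fragment and the empty vector, against 4.30 and 7.27 RPKM at 24 h, and Idi1 had 15.3 and 16.5 against 4.70 and 5.50 RPKM. Abcg1 was the lower gene, with 16.3 and 13.7 RPKM at the second time against 28.2 and 28.1 RPKM at 24 h. After quantile normalization the calls were 15 higher and 3 lower. The desaturases Scd1 and Scd2 and the synthase Fasn did not pass. Time cannot be told apart from harvest if libraries of the same time shared one. Without the empty-vector library of the second time 10 members passed.

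With both times pooled, no member passed between the mutant fragment and the empty vector (limma, 0 of 31, 7 at an unadjusted p under 0.05, median log2 difference -0.52, where 0.087% of genes passed) or between the mutant and the wild-type fragment (0 of 31, 6 unadjusted, median -0.41, where 0.0676% of genes passed). That fit holds time as a term, so its error is how far the differences between constructs change between times. Without the mutant library of the second time, 23 and 24 members passed. Without the mutant library of 24 h, 3 and 2 passed.

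Other genes of the pathways, named on lists beside the members, were read the same way. Of 29 tested, 12 were lower and 2 higher at 24 h, and 3 lower and 3 higher at the second time (limma, adjusted p under 0.05). Over all genes 18.4% were lower and 21.1% higher at 24 h, and 14.6% and 8.98% at the second time, so the counts at the second time are near the background. Lpin1, a phosphatidate phosphatase, had 1.56 RPKM with the mutant fragment at 24 h against 7.20 and 8.66 RPKM with the wild-type fragment and the empty vector, and Acss2, which makes acetyl-CoA from acetate, had 1.17 against 4.67 and 4.89 RPKM. Both were lower, with log2 differences of -1.80 (SE 0.14) and -1.42 (SE 0.18). The lysosomal cholesterol carrier Npc2 (31.7 against 75.4 and 72.4 RPKM), the acid lipase Lipa (28.7 against 48.9 and 43.6 RPKM) and Rdh11 (2.37 against 5.72 and 6.26 RPKM) were lower too. So were the LXR targets Apoe (615 against 1104 and 1097 RPKM), Lpcat3 and Mylip, the citrate carrier Slc25a1 and the acyl-CoA synthetase Acsl3, with log2 differences between -0.85 and -0.42.

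Both genes that were higher at 24 h encode enzymes of lipid storage. Dgat2, which makes triglycerides, had 22.8 RPKM with the mutant fragment against 3.08 and 3.29 RPKM with the wild-type fragment and the empty vector. Soat2, which esterifies cholesterol, had 22.8 against 4.68 and 3.84 RPKM. The log2 differences were 2.51 (SE 0.11) and 2.18 (SE 0.20), with adjusted p = 6.83e-04 and 0.00217 in limma. At the second time neither passed, with 5.47 against 4.23 and 4.55 RPKM for Dgat2 and 2.38 against 2.81 and 1.93 RPKM for Soat2. There the higher genes were Tmem97, Lipa and Elovl1 and the lower ones Mbtps2, Acsl3 and Acsl4. Mbtps2 encodes the second protease that releases SREBP factors, and had 2.46 against 6.18 and 5.35 RPKM. Acsl3 was lower at both times.

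Other features of the mutant library of 24 h moved beside these genes. Csf1r, the receptor for macrophage colony-stimulating factor, had 10.8 RPKM with the mutant fragment, against 26.4 and 29.3 RPKM with the wild-type fragment and the empty vector, and Cd14, a co-receptor for lipopolysaccharide, had 35.1 against 7.27 and 6.87 RPKM. Flt1, a receptor for vascular endothelial growth factor, had 8.53 against 44.1 and 44.4 RPKM. At the second time Csf1r had 39.7 against 23.9 and 22.3 RPKM. The implied depth of the mutant library of 24 h was 13.7 M reads, against 13.2 and 11.1 M in its controls. The part of these features in the falls was not tested.

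Levels in primary cells were compared next, without regard to genotype. Microglia had the lowest levels of most members: against macrophages, 28 of 33 tested members were lower in microglia and 2 higher (limma, adjusted p under 0.05, 2 libraries per cell type), where 44.3% of genes were called lower and 17% higher. The median log2 difference was -1.53, beside -0.43 over all genes, so genes at large leaned the same way. Against control BV2 cells, 25 of 33 were lower in microglia and 3 higher, where 41.5% and 30.3% of genes were, with a median of -1.93 beside -0.23. In macrophages against control BV2 cells, 13 were lower and 9 higher, where 23.7% and 42% of genes were, with a median of -0.16 beside 0.27. Cell type goes with culture here, since microglia were sorted from brain tissue while macrophages and BV2 cells were grown in culture, and cell type and culture cannot be told apart. In such bulk libraries fewer cells of a kind and less RNA per cell cannot be told apart either.

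Sqle, the squalene epoxidase, showed the widest gap between the primary cells. It had 0.0760 RPKM in mutant and 0.160 RPKM in wild-type microglia, against 25.4 and 21.8 RPKM in macrophages and 17.1 to 27.9 RPKM in the 4 control BV2 libraries. Its log2 difference between microglia and macrophages was -4.46 (SE 0.26, limma adjusted p = 4.61e-06). Cyp51 had 1.19 and 1.35 RPKM in mutant and wild-type microglia against 18.5 and 13.4 RPKM in macrophages of the same genotypes. Both microglia libraries were below both macrophage libraries for 30 of the 33 tested members (90.9%), against 57.9% of genes. Levels under 1 RPKM in both microglia libraries were seen for 13 of the 33 (39.4%), against 16.9% of genes, among them Fdps, Fdft1, Idi1, Scd1, Stard4 and Nr1h3, and in both macrophage libraries for 2 (6.06%), against 13.4%.

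BV2 cells were high in desaturases and in farnesyl diphosphate synthase. Scd2 had 6.16 and 6.53 RPKM in mutant and wild-type microglia, 50.3 and 61.8 RPKM in macrophages and 228 to 257 RPKM in control BV2 cells, and no pair of these cell types overlapped. Fdps had 0.451 and 0.615 RPKM in microglia and 4.82 and 2.52 RPKM in macrophages, against 44.2 to 89.7 RPKM in control BV2 cells. Fads2, the delta-6 desaturase, went the other way between the cultured cells, with 7.87 and 5.64 RPKM in mutant and wild-type macrophages, 0.209 and 0.117 RPKM in microglia, and a listed 0 in the 4 control BV2 libraries, where 1 library with the mutant fragment had 0.0490 RPKM. An exact 0 in this table can be a failed estimate, as may be so for Hmgcs1, a gene that most cells use. It is at 0 in all 10, and its row lies on an unassigned piece of chromosome 13. The Fads2 row did take reads, an implied 562 in mutant and 255 in wild-type macrophages.

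The 2 members higher in microglia than in macrophages were Abca1 and Scap, and the 3 higher than in control BV2 cells were Abca1, Scap and Tm7sf2. Both comparisons share the microglia libraries. Abca1 had 56.1 RPKM in mutant and 45.1 RPKM in wild-type microglia, against 11.2 and 18.4 RPKM in macrophages and 11.3 to 14.1 RPKM in control BV2 cells. Its log2 difference was 1.74 (SE 0.23) against macrophages and 1.91 (SE 0.20) against BV2 cells (limma, adjusted p = 3.60e-04 and 6.43e-05). Scap had 6.70 and 6.63 RPKM in microglia against 4.10 and 2.57 RPKM in macrophages. Nr1h3 stood at 0.0580 and 0.196 RPKM in microglia, against 5.71 and 4.36 RPKM in macrophages, while its relative Nr1h2, which encodes LXRβ, had 16.6 and 17.1 against 13.9 and 9.31 RPKM. Acly had 19.1 and 19.8 RPKM in microglia and 41.0 and 28.7 RPKM in macrophages, a gap that did not keep its direction after quantile normalization (log2 difference 0.22 in place of -0.79).

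**Figure D3:**
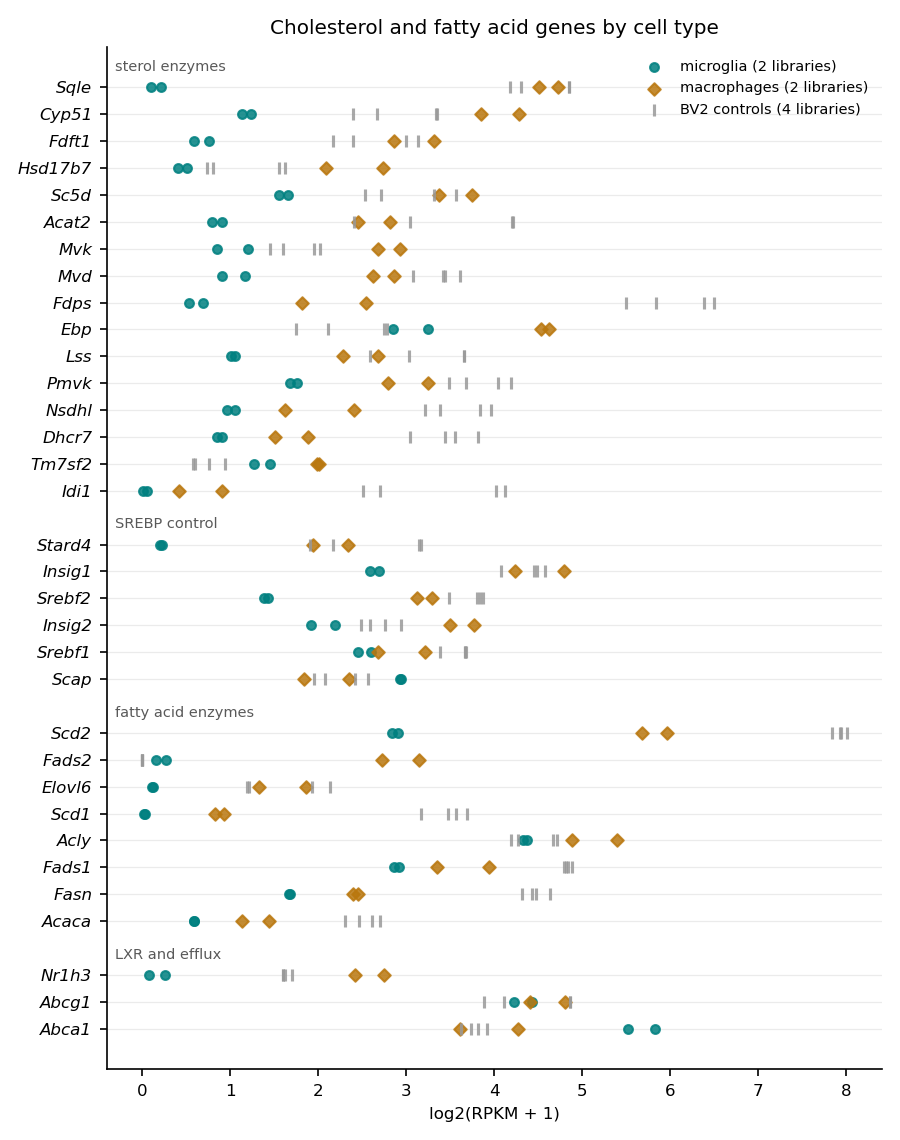
Levels as log2(RPKM + 1) of the 33 members tested across cell types, in microglia (circles, 2 libraries), macrophages (diamonds, 2 libraries) and control BV2 cells (ticks, 4 libraries), ordered within each role by the difference between microglia and macrophages. Microglia circles lie at the left for most genes, and Abca1 and Scap are the 2 whose microglia lie at the right.

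The mutant alleles in primary cells gave no comparable fall. With cell type as a term, 0 of 31 members passed between mutant and wild-type mice (limma, 0 also at an unadjusted p under 0.05, where 0.337% of genes passed), and the median log2 difference was 0.18, beside 0.06 over all genes. That fit has 4 libraries and 1 residual degree of freedom and gave every gene the same SE of 0.26. The highest value among members was 0.35, for Srebf1. Within microglia, on 1 library a side and with no test, the members' differences lay between -0.39 and 0.31 with a median of -0.05, beside -0.08 over all genes. Within macrophages they lay between -0.67 and 0.77 with a median of 0.38, beside 0.18, and 25 of 31 were above 0, where 70.6% of genes were. On the log2(RPKM + 1) scale no member differed 2-fold between genotypes in either cell type, where 0.683% of genes in microglia and 1.95% in macrophages did. A member under 1 RPKM in both genotypes cannot reach 2-fold on that scale. In plain RPKM some members did differ 2-fold. Nsdhl had 4.29 RPKM in mutant and 2.10 RPKM in wild-type macrophages. In microglia Sqle had 0.0760 and 0.160 RPKM in the same order, on an implied 6 and 15 reads. Nr1h3 had 0.0580 and 0.196 RPKM there, on an implied 3 and 12 reads. So few reads leave these ratios uncertain.

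Scd2 had 6.16 RPKM in mutant and 6.53 RPKM in wild-type microglia, and 50.3 and 61.8 RPKM in macrophages of the same genotypes. Insig1 had 5.48 and 5.01 RPKM in microglia and 26.7 and 17.9 RPKM in macrophages. The largest values above 0 in macrophages were those of Nsdhl, with 4.29 RPKM in mutant and 2.10 RPKM in wild-type macrophages, and Fdps, with 4.82 and 2.52 RPKM. Abca1 was the lowest in macrophages, with 11.2 against 18.4 RPKM, and was above in microglia. For 18 of the 31 members (58.1%) the sign differed between the 2 cell types, against 60.7% of genes. The sum of granulocyte markers, given above, was lower in mutant than in wild-type cells of both types, and its part in these values was not tested.

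The marked promoters were much the same with all 3 constructs. H3K4me2 peaks lay within 20 kb of the start for 32 of 33 members with a usable position in cells with each construct, and within 1 kb for 29 with the mutant fragment, 28 with the wild-type fragment and 28 with the empty vector. Of all tested genes 96.0% to 96.3% had one within 20 kb and 89.6% to 90.0% within 1 kb, so these counts are near the background. There is 1 library per antibody and construct, so none of the differences between constructs has a replicate check. A peak is called mutant-only here where it overlaps no peak of either control by 1 base or more, and missing where an empty-vector peak that overlaps a wild-type-fragment peak overlaps no mutant peak.

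PU.1 peaks lay near 31 members in mutant-fragment cells, against 25 with the wild-type fragment and 27 with the empty vector. Among the 31 tested members the shares were 93.5%, 74.2% and 80.6%, against 87.7%, 82.8% and 89.8% of genes in that order of constructs. The whole lists held 64744, 53835 and 71846 peaks in that order, so the mutant list was not the longest. Among the 31 members tested for expression, 17 (54.8%) had a mutant-only PU.1 peak, against 37.1% of all genes tested, and 7 (22.6%) had a missing one, against 20.3%. The excess of mutant-only PU.1 peaks depended on the window: the shares were 6.45% of members against 6.03% of genes within 1 kb, 25.8% against 15.7% within 5 kb, and 64.5% against 63.1% within 50 kb. Of the 22 members that were lower at 24 h, 13 had a mutant-only PU.1 peak, and of the 9 others 4 did. Most of these 25 peaks were far from starts, and 2 lay within 1 kb. With distances counted from the start to the peak's centre, they were at Pmvk (chr3:89262894-89263028, mm9, 79 bases before the start) and at Acly (chr11:100389468-100389602, 221 bases before). A PU.1 peak was missing at Scd2 (chr19:44367815-44367961, 278 bases before the start). Within 1 kb of that start the mutant list still held 1 PU.1 peak, against 2 with each control. Missing PU.1 peaks within 1 kb were near 3.23% of members, against 3.18% of genes.

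For C/EBPβ the same sets were counted. Of the 31 tested members, 14 (45.2%) had a mutant-only C/EBPβ peak, against 28.2% of genes, and 5 (16.1%) had a missing one, against 19.2%. Mutant-only C/EBPβ peaks were near 19.4% of members against 8.52% of genes within 1 kb, and near 64.5% against 47.8% within 50 kb. The mutant list held 47893 peaks, against 69522 with the wild-type fragment and 35964 with the empty vector. Of the 17 mutant-only peaks near members, 6 lay within 1 kb of the start. They were at Fdps (chr3:88905873-88906017, 56 bases before the start), Insig1 (chr5:28397590-28397734, 290 bases before), Pmvk (299 bases before, beside a missing peak 473 bases before), Fasn (453 bases after), Scd2 (626 bases before) and Scap, where the peak is centred on the start. Within 1 kb of the Insig1 start the mutant list held 2 C/EBPβ peaks, against 3 with the wild-type fragment and 1 with the empty vector. At Pmvk each of the lists held 1. At Fdps, Fasn, Scd2 and Scap the mutant list held 1, against 0 with each control. Of the 22 members lower at 24 h, 11 had a mutant-only C/EBPβ peak within 20 kb, and of the 9 others 3 did. A mutant-only peak of both factors was near 8 of the 31 tested members (25.8%), against 12.1% of genes: Fasn, Fdft1, Fdps, Insig1, Insig2, Nr1h3, Pmvk and Srebf2.

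Within 20 kb, C/EBPα and H3K4me2 showed no such count above the background. For C/EBPα, 2 of the 31 tested members (6.45%) had a mutant-only peak, against 6.68% of genes, and 4 (12.9%) a missing one, against 15.6%. Within 5 kb, 0 had a mutant-only C/EBPα peak, against 2.98%, and 3 (9.68%) a missing one, against 6.73%. For H3K4me2, 4 members (12.9%) had a mutant-only peak, against 17.7%, namely Mvd, Fdps, Scap and Elovl6. The shares for H3K4me2 depended on the window. They were 3.23% (1 member) against 0.908% within 1 kb, 9.68% (3 members) against 5.34% within 5 kb, and 25.8% against 35.3% within 50 kb. The H3K4me2 count within 20 kb also depended on the rule. With peaks matched by centres within 100 bases, 23 members (74.2%) had a mutant-only one, against 74.9% of genes, and 11 (35.5%) a missing one, against 42.6%. Pmvk was the 1 member with a missing H3K4me2 peak, 9.53 kb before its start, against 9.96% of genes. Since peaks carry no usable score (it is 1 throughout), changes in the height of shared peaks were not measured.

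**Figure D4:**
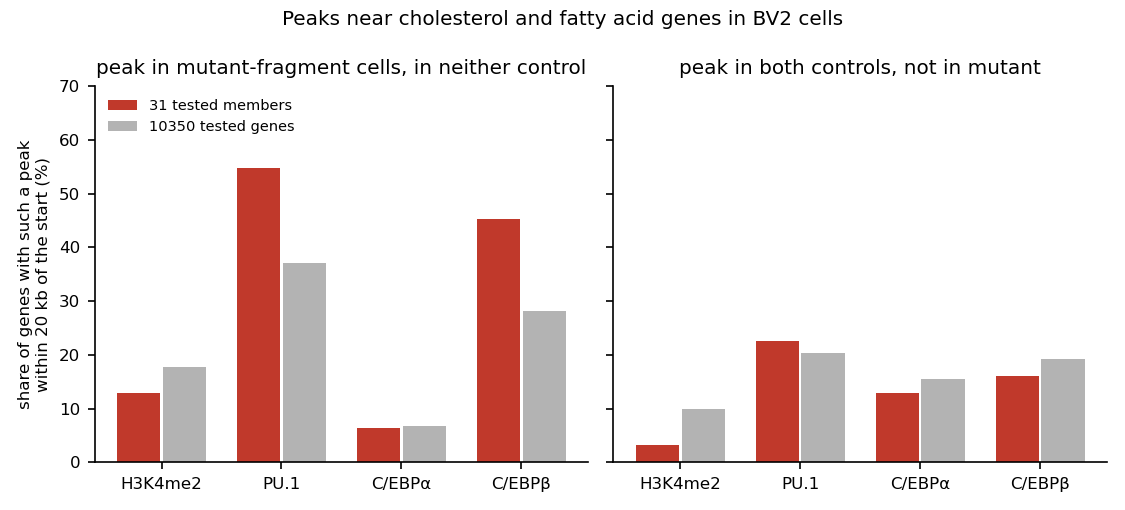
Share in percent of the 31 tested members (left bar of each pair) and of all 10350 tested genes (right bar) with a peak within 20 kb of the start that is in mutant-fragment BV2 cells and in neither control (left), or in both controls and not in mutant-fragment cells (right), for 4 antibodies with 1 library per construct. Mutant-only peaks were near 54.8% of members for PU.1 and 45.2% for C/EBPβ, against 37.1% and 28.2% of genes; within 50 kb the PU.1 shares were 64.5% and 63.1%, and the C/EBPβ shares 64.5% and 47.8%.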

How the data were processed

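Polyadenylated RNA was sequenced from 6 BV2 and 4 primary cell libraries, and 12 BV2 chromatin immunoprecipitations gave the peak lists. Per the submitters' processing notes, STAR 2.0.3e, Bowtie, HOMER and edgeR were used on mm9, without a stated role for each. The authors deposited 1 table of RPKM per transcript, and the transcript of highest mean per symbol was used. RPKM values were whole multiples of 1 read within 0.1 reads in 100% of the low values tested, which gave implied depths of 10.8 to 47.8 M reads per library. Per the file headers, peaks were called by HOMER on each library at 4-fold over input, 4-fold over the local region, a Poisson cutoff of 0.0001 and a false discovery rate of 0.001, and the score column is 1 throughout. The input that those headers name is labelled as from other macrophages.

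Tests used limma 3.58.1 in R 4.3.3 on log2(RPKM + 1), with Benjamini-Hochberg adjustment over all genes at 1 RPKM or more in at least 2 libraries and a threshold of 0.05, after a check on simulated data. A fold change on that scale understates the change of low genes. The fits were construct plus time or mutant by time in BV2 cells, cell type with the 4 control BV2 libraries, and genotype plus cell type in primary cells. Peaks within 20 kb of a start were compared by an overlap of 1 base. Alternatives were other pseudocounts, no filter, quantile normalization, the longest transcript, other windows and leaving out each library. The genes and lists were chosen with earlier results of these data known. All listed genes in the table are named, and other pathway genes where they passed, apart from some that are not reported here. Python 3.11.15 and pandas 2.3.3 made the tables.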

Additional observations from a re-analysis of the deposited data

Results flagged for a closer look

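For 19 members the difference between the mutant fragment and the controls itself differed between times, as tested by the interaction term (limma, adjusted p under 0.05). The values are the log2 difference at the second time minus that at 24 h. Among sterol enzymes they were 2.04 for Mvd, 2.01 for Nsdhl, 1.96 for Acat2, 1.93 for Dhcr7 and 1.82 for Fdps. They were smaller for Lss (1.08), Pmvk (0.9), Fdft1 (0.89), Cyp51 (0.89) and Sqle (0.67). Control genes had 2.27 (Insig1) and 1.12 (Srebf1). Fatty acid enzymes had 2.29 (Scd2), 1.89 (Scd1), 1.6 (Fasn), 1.15 (Acly) and 1.04 (Fads1). Nr1h3 had 0.58, and Abca1, at -0.86, was the only negative value among the 19.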

How the results depend on the processing

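The 24 calls at 24 h ranged from 18 to 25 over other pseudocounts, no filter, quantile normalization and the longest transcript, and from 23 to 24 when a control library was left out. That comparison and the interaction cannot be estimated without a mutant library, and the genotype fit in primary cells has no residual degrees of freedom without any library. Without the filter on low values, 3 members passed at the second time and 6 in the interaction. With each library left out in turn, calls ranged from 0 to 4 at the second time, 0 to 18 for the interaction, 10 to 18 for time in control cells, 0 to 23 for the mutant fragment against the empty vector and 0 to 24 against the wild-type fragment. A lone library was then assumed to vary like the others. Quantile normalization reversed Acly in microglia (0.22 against macrophages, 0.41 against control BV2 cells) and Sqle in macrophages against control BV2 cells (-0.41). The cause was not tested. Of the counts of members under alternatives, 104 stayed within 1.5 times, 6 were higher and 7 lower. The labels give no replicate numbers to pair, and the fits of constructs and of genotypes hold time or cell type as a term. With H3K4me2 peaks matched by centres within 100 bases, 24 of the 33 placed members had a mutant-only peak in place of 4, and 12 a missing one in place of 1. Depth limits the low members most: Acat2 had 25 implied reads in the mutant library of 24 h.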
